A study of Caenorhabditis elegans with 4 samples.

Results

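Broad MRE-11 domains are the stretches of worm chromatin over which the DNA repair nuclease MRE-11 was called as 1 continuous peak of 1000 bp or more. They were chosen by the measured width of the peaks in the list deposited for the whole series: 434 of its 6862 peaks on the 6 nuclear chromosomes (6.32%) reached that width, and the other 6428 were narrower. Width is therefore what selected these regions, and their widths and scores in that list are given as a description. The 2 lists of the single ChIP replicates were not used to choose them, although it is not given whether the series-level list was made from the same reads.

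The study profiled MRE-11 by chromatin immunoprecipitation and sequencing (ChIP-seq) in Caenorhabditis elegans. All 4 samples came from hermaphrodites with the genotype fem-2(b245)III, labelled as young adults that contain a germline and grown at 20 °C. The 2 ChIP samples were precipitated with MRE-11 SDQ2366, an affinity-purified rabbit polyclonal antibody, and the 2 input samples are DNA of the same strain. Every sample carries the fem-2 mutation, so there is no wild-type group, and the growth protocol describes gravid adults where the stage label says young adult. Whole animals were harvested in bulk, so more MRE-11 in a cell and more cells with MRE-11 cannot be told apart, nor germline from soma. The lists hold positions and scores without reads, so the depth behind each value is unknown, and the input has no list analysed here.

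MRE-11 is the nuclease subunit of a complex with RAD-50. The complex binds and trims the ends of DNA double-strand breaks, and in the worm germline it acts both in making the programmed breaks of meiosis, which the enzyme SPO-11 cuts, and in their processing. Worm autosomes have gene-dense central regions and arms that are richer in repeats and in meiotic crossovers. The X chromosome is largely silent in transcription in the worm germline.

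The domains were few but held 872 kb, 29.5% of all bases under series-level peaks. Their median width was 1532 bp, with 25% narrower than 1218 bp and 25% wider than 2328 bp, against a median of 270 bp in the narrower peaks. Of the 434, 210 were under 1500 bp, 130 were at least 1500 but under 2500 bp, 77 at least 2500 but under 5000 bp, and 17 were 5000 bp or wider. The threshold falls inside a continuous distribution. The members just inside it were I:14475805-14476804 (1000 bp, score 21.7) and III:1895324-1896324 (1001 bp, score 7.18), and the peaks just outside it were V:13006291-13007286 (996 bp, score 29.04) and V:19933063-19934057 (995 bp, score 34.75). All positions are on WormBase WS220, and no gene is named because no annotation of that build was used here.

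The widest domain was I:15060198-15071385, which was 11188 bp wide and lay close to the end of the right arm, the side of that chromosome that carries the tandem ribosomal RNA genes. In replicate 1 a peak of 11979 bp contained it, and in replicate 2 a peak of 11066 bp covered 98.9% of it. Both replicate peaks carried the score 3100, at which many replicate scores are tied. The second widest, V:7916798-7925040 (8243 bp, series-level score 75.12), lay inside a 10095 bp peak of replicate 1 and an 8381 bp peak of replicate 2, again both at 3100. III:6566789-6574503 (7715 bp, score 42.25) was likewise covered by peaks of 8499 and 7747 bp at 3100. These wide domains therefore had nearly the same extent in replicate 2 and a somewhat larger one in replicate 1.

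Not every wide domain scored above the domains' median of 33.4. X:10361033-10369156, the widest on X at 8124 bp, had a series-level score of 26.67, still at percentile 84.9 of that list. Its replicate peaks scored 1116 in replicate 1 and 287.3 in replicate 2. Both replicates met 82.3% of all 434 domains, and of the 12 widest they met 10, a similar share. Beside those described above these were V:17119895-17126625 (6731 bp), V:3434484-3441168 (6685 bp), X:2057775-2063918 (6144 bp), I:13610015-13615805 (5791 bp), X:289769-295307 (5539 bp) and V:10018312-10023580 (5269 bp), with series-level scores from 76.14 to 98.34. The other 2, I:10212159-10219260 (7102 bp, score 35.06) and II:14601157-14606650 (5494 bp, score 23.7), had no replicate 1 peak. IV:4416418-4421606 (5189 bp, score 27.12), the widest on IV, had peaks of 6414 bp in replicate 1 and 5670 bp in replicate 2 with scores of 1300.2 and 1269.5.

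**Figure D1:**
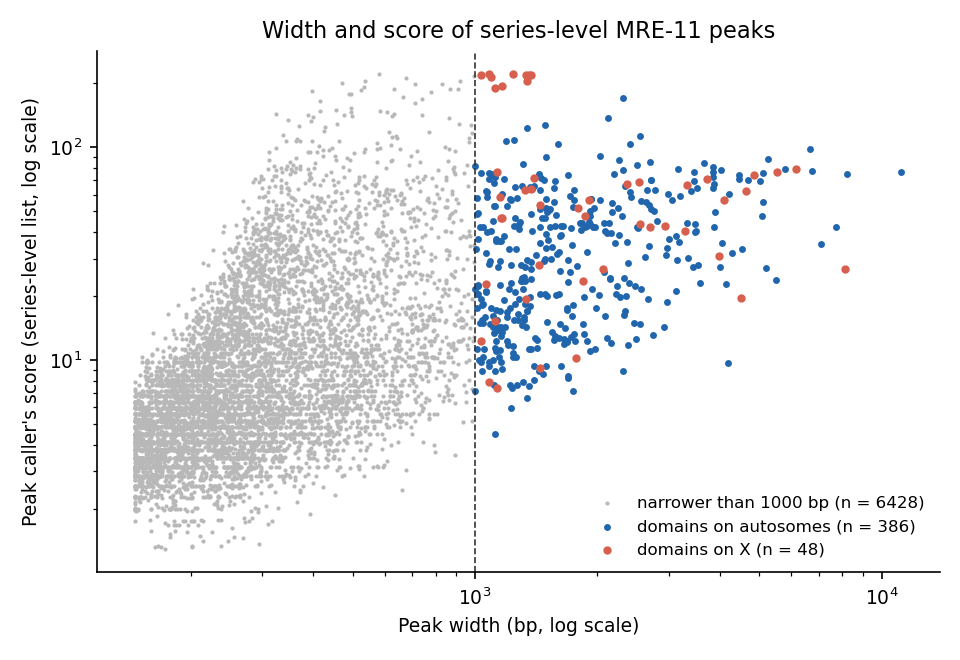
Width in bp against the peak caller's score for all 6862 nuclear series-level peaks, both on log scales, with narrower peaks in grey, autosomal domains in blue and X domains in red; the dashed line is the 1000 bp threshold. The 10 X domains with scores of 190.67 to 219.89 stand above the other domains at widths of 1036 to 1376 bp, and the 17 domains of 5000 bp or more, with a median score of 75.1, lie below them.

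Domains ranked high by score in their own list. Their median score was 33.4, a median percentile of 88.6 within the list, against 6.95 and 46.9 for narrower peaks. Of the 434 domains, 426 lay in the upper 50% of the list by score and 197 (45.4%) in its upper 10%, which also held 493 narrower peaks (7.67% of those). The median score went from 23.3 below 1500 bp to 32.2, 45.2 and 75.1 in the 3 wider classes. Width and score come from the same calls, so this is a property of the list. Among the 100 highest scores, 20 were domains, above their 6.32% of the list, although most of these 100 peaks were narrower than 1000 bp. Across the 386 autosomal domains, width and score had a Spearman correlation of 0.34, and across the 48 X domains of -0.07. Domains are not independent replicates, and both measures come from the same reads.

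The X domains fell into 2 score ranges. 10 scored 190.67 to 219.89, the next was X:2057775-2063918 at 79.49, and the other 38 went down to 7.36. Among the 386 autosomal domains 1 scored above 150, III:3867353-3869667 (2315 bp) at 170.18. This split was noticed in the values. The high range was not particular to domains: the 27 highest peaks of the whole list, at 177.57 or more, all lay on X, and 17 of them were narrower than 1000 bp. The 10 domains among them were all short, at 1036 to 1376 bp, where the other X domains had a median of 1854 bp. The 8 highest were X:1626614-1627698 and X:16055875-16057111 (each 219.89), X:14525298-14526673 and X:2996141-2997474 (each 218.57), X:4208406-4209760 (218.03), X:8035887-8036922 (217.61), X:6295833-6296930 (213.93) and X:11093370-11094715 (204.71).

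These 10 X domains were present in both replicates. Each lay wholly inside a replicate 1 peak of 1646 to 2407 bp, and 7 of those peaks scored 3100 or more. Replicate 2 had 1 peak on 9 of them and 2 peaks on X:1389161-1390278, with the best-overlapping peak 750 to 1278 bp wide and at 3100 or more in 9 of 10. The replicate 2 peaks on X:1626614-1627698 (931 bp) and X:6295833-6296930 (836 bp) were themselves narrower than 1000 bp. X:9465337-9466328, at 992 bp and a score of 216.33, lay just outside the threshold.

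Most domains were met by a peak in each replicate. Replicate 1 overlapped 377 of 434 by at least 1 bp (86.9%, 95% exact binomial interval 83.3 to 89.9), where its background over all 6862 series-level peaks was 37.7%. Replicate 2 overlapped 412 (94.9%, 92.4 to 96.8), with a background of 58.8%. The mean over replicates was 90.9% ± 5.70 (SD, n = 2) for domains and 45.3% ± 15.6 (SD, n = 2) for narrower peaks, with 34.3% in replicate 1 and 56.3% in replicate 2. Both replicates overlapped 357 domains (82.3%; background 23.2%). In each replicate the domains had the larger share. No test was made, because peaks of 1 list are not replicates and 2 lists are too few. The intervals here and below are exact binomial intervals, treat peaks as independent and cover counting error only.

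A wide interval meets another more easily, so the midpoint was also used, which has no width. The midpoint of 372 domains (85.7%; background 37.0%) lay in a replicate 1 peak and that of 386 (88.9%; background 56.5%) in a replicate 2 peak, against 33.7% and 54.3% of narrower peaks. The share met by replicate 1 went from 19.9% of the 2800 peaks under 250 bp to 38.0%, 66.8%, 83.8%, 89.2% and 90.9% in the next 5 width classes, and was 88.2% of the 17 widest (63.6 to 98.5). In replicate 2 it went from 33.2% through 71.3%, 82.5%, 91.0%, 99.2% and 97.4% to all 17. The shares thus rose already below 1000 bp. They rose across it too, with intervals of 63.7 to 69.8 below and 78.1 to 88.5 above in replicate 1. In replicate 2 these were 79.9 to 84.9 and 86.2 to 94.5. Classes this wide cannot show whether there is a step at 1000 bp itself. Above 1500 bp the intervals of neighbouring classes overlapped in both replicates.

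**Figure D2:**
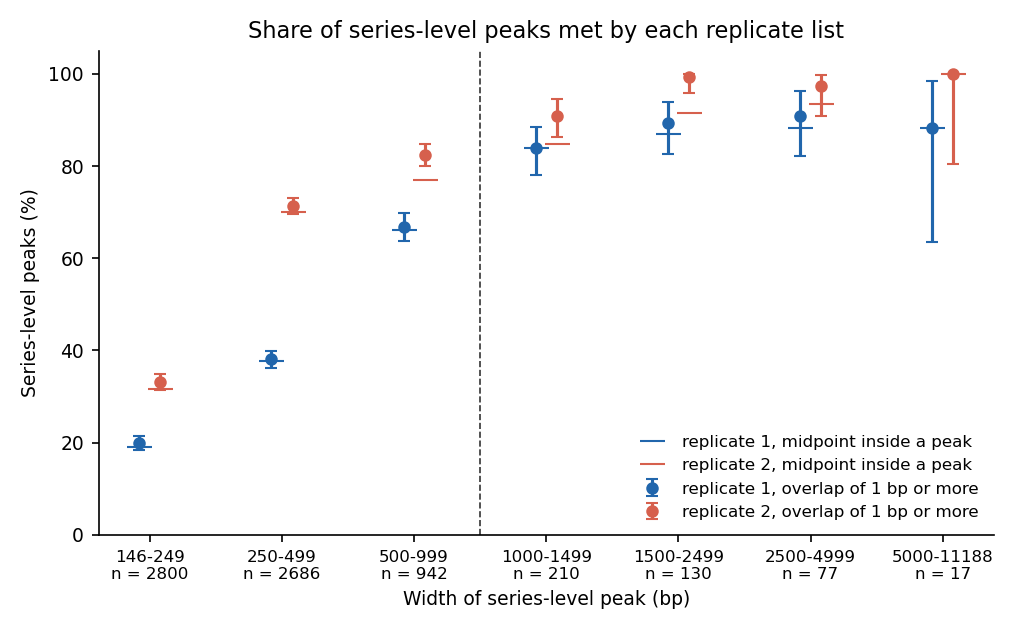
Percentage of series-level peaks in each width class (bp, n under each class) met by replicate 1 (blue) and replicate 2 (red); dots are overlap by 1 bp or more with 95% exact binomial intervals, horizontal ticks are peaks whose midpoint lies in a replicate peak, and the dashed line is the 1000 bp threshold. The share overlapped is larger in each wider class up to 1500 bp, and from there it lies between 88.2% and 90.9% in replicate 1 and at 97.4% or more in replicate 2.

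At matched score the replicates differed in how far domains stood apart from narrower peaks. Among the 20% of series-level peaks with the highest scores (20.53 or more), replicate 2 met 286 of 288 domains (99.3%) and 1059 of 1072 narrower peaks (98.8%). Replicate 1 met 264 of the same domains (91.7%, 87.9 to 94.6) and 667 of the narrower peaks (62.2%, 59.2 to 65.1). In the next 20% by score, replicate 2 met 91.3% of 115 domains and 84.1% of 1209 narrower peaks, and replicate 1 met 78.3% and 33.1%. With narrower peaks weighted to the domains' distribution over these classes, their shares came to 52.2% in replicate 1 and 91.6% in replicate 2. The domains had 86.9% and 94.9%. Scores may still differ inside a class. By midpoint the weighted share in replicate 2 was 90.3%, above the 88.9% of the domains, so in that replicate the order of the 2 kinds of peak depended on the overlap rule. The replicate 1 list has 1579 peaks, 98.8% of them 1000 bp or wider, and replicate 2 has 4403, 8.02% of them that wide. The part that this difference in peak width has in the comparison was not tested.

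The replicates drew the domains differently. Replicate 1 enclosed 347 domains (79.95%; background 35.7%) whole in 1 peak, and replicate 2 enclosed 86 (19.8%), below its background of 24.7%. In replicate 1, 5 domains were split over 2 peaks. In replicate 2, 122 domains (28.1%) were met by 2 or more peaks, against 1.38% of narrower peaks, and 26 of these by 3 or more. The most divided was III:325742-329939 (4198 bp, score 9.65), with 7 replicate 2 peaks over 71.1% of its bases and 1 replicate 1 peak over all of it. Summed over all domains the covered share hardly differed, at 86.4% of bases in replicate 1 and 86.3% in replicate 2.

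Edges were closer in replicate 2. Replicate 1 peaks extended beyond the domain by a median of 377 bp on the left and 428 bp on the right, and replicate 2 peaks by -29.5 bp and 2.5 bp, a negative value meaning that the peak stopped inside the domain. In replicate 2 both edges lay within 100 bp of the domain's edges for 147 of 412 domains (35.7%), and in replicate 1 for 3 of 377. Of narrower peaks with a replicate 2 partner, 63.6% had both edges within 100 bp. The replicate 1 peak on a domain had a median width of 2959 bp, and the replicate 2 peak 1373 bp. The ratio of peak width to domain width, taken domain by domain, had a median of 1.56 in replicate 1 and 0.96 in replicate 2.

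**Figure D3:**
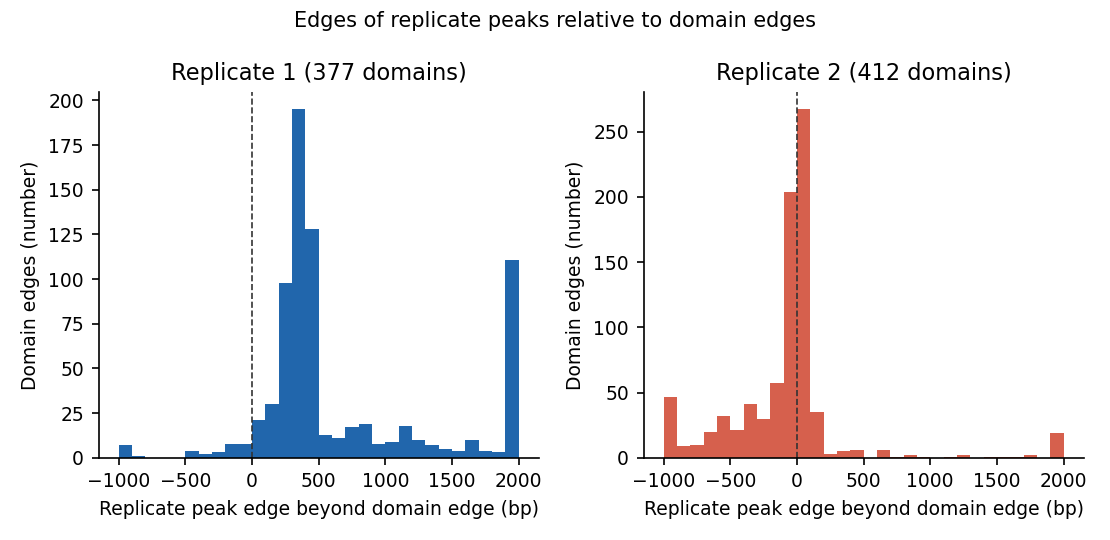
Number of domain edges (left and right edges together) by the distance in bp at which the best-overlapping replicate peak ends beyond the domain, with distances beyond 1000 bp inside or 2000 bp outside the domain placed in the outermost bars and the dashed line at 0. Replicate 1 edges peak at 300 to 400 bp outside the domain, and replicate 2 edges peak within 100 bp of it with a tail inside the domain.

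Seen from the replicate lists, the domains held a large part of the strongest calls. Of 1579 replicate 1 peaks, 342 (21.7%) met a domain. They had a median score of 787, against 116 for the 1199 peaks that met narrower series-level peaks only, and included 39 of the 42 peaks with a score of 3100 or more. Of 4403 replicate 2 peaks, 556 (12.6%) met a domain, with a median score of 662 against 149 and with 67 of the 76 peaks at 3100 or more. Replicate 2 had 353 peaks of 1000 bp or more, of which 301 (85.3%) met a domain, while of the 1560 such peaks in replicate 1, 342 (21.9%) did. Most replicate 2 peaks of that width thus met a domain, and most replicate 1 peaks of that width did not.

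The 77 domains that lacked a partner in at least 1 replicate were not alike. Replicate 2 alone met 55 (12.7%; background 35.6%), replicate 1 alone met 20 (4.61%; background 14.4%) and neither met 2 (0.461%; background 26.8%). The 20 domains of replicate 1 alone had a median width of 1222 bp and scores of 7.18 to 21.0, and 12 of them lay on III. III held 20.5% of all domains, and 404 of the 971 narrower peaks met by replicate 1 alone lay there too. Over the 20 domains, the replicate 1 peak that met each had a median width of 5546 bp. A peak that met several of them was counted once per domain. III:276982-278070, III:281678-282793 and III:285206-286603, for example, all lay in a single replicate 1 peak of 15260 bp. The 55 of replicate 2 alone had a median score of 17.6, reached 7102 bp, and included 17 on I. I held 16.1% of all domains and 530 of the 2385 narrower peaks met by replicate 2 alone.

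The widest domains with a partner in a single replicate were all found in replicate 2 alone. I:10212159-10219260 and I:10207572-10212107 (4536 bp, score 33.44) lie 51 bp apart and, with I:10204048-10207383 (3336 bp), filled 98.4% of a 15.2 kb stretch in which replicate 1 had no peak on them. II:14601157-14606650 and X:12663404-12667389 (3986 bp, score 30.8) had replicate 2 peaks at 3100, and I:4543914-4547784 (3871 bp, score 66.93) had replicate 2 peaks with a best-overlapping score of 469. The 2 domains met by neither replicate, I:10267731-10271870 (4140 bp, score 22.79) and I:10274791-10276261 (1471 bp, score 8.58), were neighbours, 2920 bp apart, on the same part of I. A series-level call of that width without a call in either replicate occurred nowhere else among the domains.

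By chromosome, the domains followed the narrower peaks in part. III had 89 domains, 1.49 times its share of the length (95% interval of its share of domains 16.8% to 24.6%, against 13.7% of the length), and X had 48, 0.626 times its share (8.27% to 14.4% of domains, 17.7% of the length). The ratios of the narrower peaks were 1.77 and 0.456. I (70 domains, 1.07), IV (84, 1.11) and V (91, 1.00) had intervals that contain their share of the length, as did II (52, 0.786). Without the dense left part of III, 1.0 to 2.5 Mb, which was picked after values were seen, the III ratio was 1.19 for domains. For narrower peaks it was 1.53. No interval was computed for these ratios, so whether III still exceeds its share of the length beyond counting error is not shown.

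The share of peaks that were broad was highest on V and X. On V 8.54% of 1066 peaks were domains (6.93 to 10.4) and on X 8.48% of 566 (6.32 to 11.1), against 5.32% on I (4.17 to 6.68), 5.16% on II (3.88 to 6.71), 5.39% on III (4.35 to 6.60) and 6.68% on IV (5.36 to 8.21). The interval of V lay above those of I, II and III and overlapped that of IV, and the interval of X overlapped all of them. V had 0.727 times its share of narrower peaks and 1.00 times its share of domains. The median width of domains lay between 1440 bp on X and 1686 bp on I, and the median score between 20.6 on III and 56.6 on X. The replicates varied across chromosomes too. Replicate 1 met 72.9% of the domains on I and 88.1% to 91.0% on the other chromosomes, and replicate 2 met 86.5% on III, 91.4% on I and 96.7% to all on the others, with all 84 on IV and all 48 on X. The narrower peaks were lowest on the same chromosomes, with 29.2% on I and 31.2% to 42.8% elsewhere in replicate 1, and 49.5% on III and 52.3% to 62.2% elsewhere in replicate 2.

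**Figure D4:**
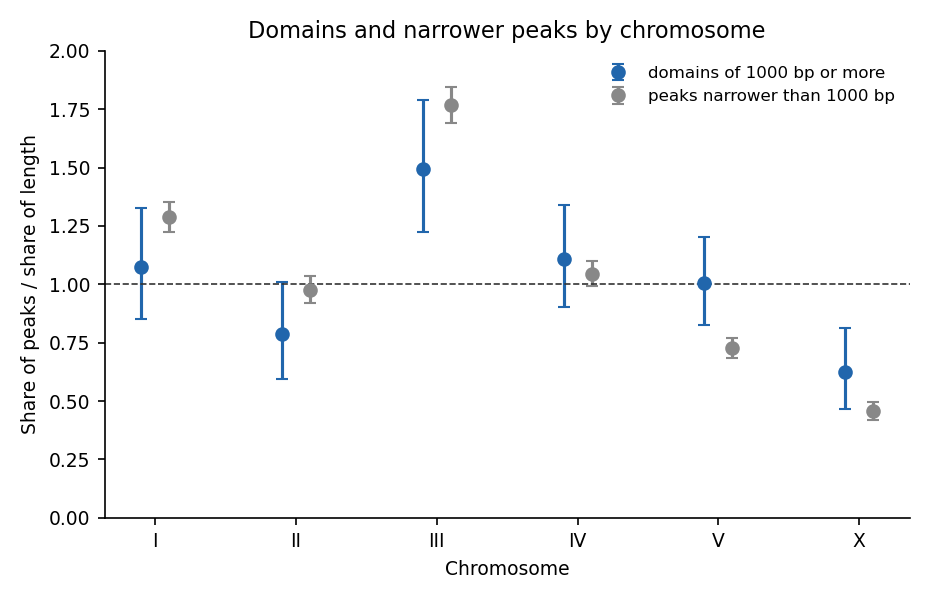
Share of domains (blue, 434 peaks) and of narrower peaks (grey, 6428 peaks) on each chromosome divided by the chromosome's share of the length, with 95% exact binomial intervals of the share; the dashed line is 1. III is above 1 and X below 1 for both kinds of peak, and on V the domains lie at 1.00 and the narrower peaks at 0.727.

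Arms were taken as equal end segments that add up to 66.7% of each chromosome. By that definition, the arms of 4 of the 5 autosomes held more domains than their share of the length. Of 386 autosomal domains, 299 (77.5%, 73.0 to 81.5) had their midpoint there, and of 5910 autosomal narrower peaks 69.8% (68.6 to 71.0). The share was 84.3% of 70 domains on I, 82.7% of 52 on II, 80.9% of 89 on III and 76.9% of 91 on V, and 65.5% of 84 on IV (54.3 to 75.5), which did not differ from the share of the length beyond its interval. Without III it was 76.4% (71.2 to 81.1). On I, 12 and 10 of the 70 domains lay in the innermost parts of the arms, at 3.77 to 5.02 Mb and 10.05 to 11.30 Mb. The share on I thus depends on where an arm is taken to end. On X 35 of 48 domains lay on the arms (72.9%, 58.2 to 84.7), where narrower peaks had 79.3%.

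The arm domains were not spread evenly. On III, 45 of 89 domains lay in the left-most 16.7% of the chromosome, against 30.2% of its narrower peaks, and on V 30 of 91 lay in the right-most 16.7%, against 25.5%. On II 16 of 52 lay in the right-most 16.7%, against 18.7%. Over all autosomes, arm domains had a median score of 27.7 and central ones of 41.7. Without III the medians were 33.3 and 40.9, and on V the order was opposite, at 31.7 and 30.4. Median widths were 1527 bp on the arms and 1617 bp in the centres, and without III 1548 and 1543.5 bp. On I, II and IV the arm domains had the larger median width, and on III and V the central ones.

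The replicates also differed along the autosomes. Replicate 2 met all 87 central autosomal domains and 92.6% of the 299 on the arms. Replicate 1 met 81.6% of the central ones and 88.0% of those on the arms. On I its order was opposite, at 90.9% of 11 central and 69.5% of 59 arm domains. On II, III, IV and V it was as in the total, with the largest difference on IV, at 72.4% and 96.4%. Narrower peaks of all autosomes together had the order of the domain totals. Their shares were 51.7% on the arms and 68.3% in the centres for replicate 2, and 39.3% and 22.6% for replicate 1. All 22 domains without a replicate 2 peak, the 20 of replicate 1 alone and the 2 of neither, lay on autosomal arms. Of the autosomal narrower peaks, 90.2% of the 915 met by replicate 1 alone and 71.1% of the 1645 met by neither lay there too. The 2 of neither lay just inside the arm boundary of I, at 68.1% and 68.2% of its length. In the dense part of III, 1.0 to 2.5 Mb, replicate 1 met all 29 domains and replicate 2 met 21, and the other 8 were met by replicate 1 alone. For the 418 narrower peaks of that part of III the shares were 83.7% in replicate 1 and 18.4% in replicate 2. Outside it on III, replicate 1 met 86.7% of 60 domains and replicate 2 met 93.3%, and of 1143 narrower peaks 27.8% and 60.8%, so for both kinds of peak the order of the replicates was opposite inside and outside it.

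**Figure D5:**
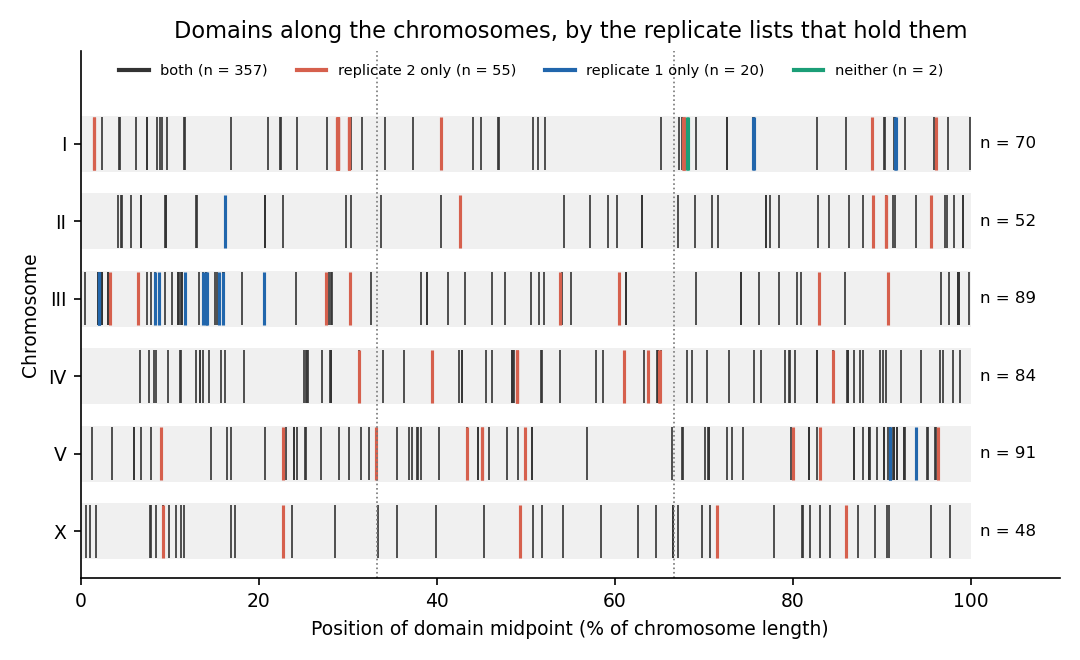
Midpoints of the 434 domains along each chromosome as a percentage of its length, coloured by the replicate lists that overlap them by 1 bp or more; the dotted lines separate the arms from the central segment. Domains met by replicate 1 only (blue, n = 20) are all on autosomal arms and 12 of them on III, which holds 89 of all domains. Those met by neither (green, n = 2) are together on I.

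Domains occurred in runs. The nearest other domain was within 10 kb for 164 of 434 (37.8%, 33.2 to 42.5), whereas 1065 of 6428 narrower peaks (16.6%, 15.7 to 17.5) had a domain that near. Within 1 kb the shares were 18.0% and 4.96%. The 164 formed 63 runs with gaps of at most 10 kb: 39 pairs, 17 of 3 domains and 7 of 4 to 6. V (46.2%), III (47.2%) and I (42.9%) had the most domains in runs, and X the fewest, 5 of 48 (10.4%), although 15.8% of the narrower peaks on X had a domain within 10 kb. Neighbouring domains of a run could lie under a single replicate peak.

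The longest runs showed this. III:314669-332336 held 6 domains that filled 84.6% of 17.7 kb, all met by both replicates. III:261538-286603 held 6 in 25.1 kb, filling 39.8%, all met by replicate 1 and 3 by replicate 2. I:4340894-4357140 held 6 in 16.2 kb with scores of 8.27 to 12.78, all met by replicate 2 and none by replicate 1, and a single replicate 2 peak of 12282 bp, I:4345318-4357599, spanned 4 of them and 6 narrower peaks. Near the right end of III, 5 domains between 13584242 and 13597401 lay under 1 replicate 1 peak of 15149 bp. In all, 30 replicate 1 peaks and 11 replicate 2 peaks met 2 or more domains.

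The surroundings of domains held as many narrower peaks as those of narrower peaks themselves. Within 5 kb on either side, the mean number of narrower peaks was 2.07 for both kinds, and 68.0% of domains (63.4 to 72.3) had at least 1, against 71.6% of narrower peaks (70.5 to 72.7). Domains were thus nearer to each other than narrower peaks were to domains, while the number of narrower peaks around both was close.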

How the data were processed

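BWA and the build ce10 are named in the submitters' processing notes. 1 peak list was deposited per ChIP replicate (caller MACS) and 1 for the series (caller MACS v2). Per the file headers, positions are on WormBase WS220. Scores in the deposited lists are values of the caller with no unit named, and series-level and replicate scores were never compared as values. Pooling, control and thresholds are not given in the sources used here. Per the labels' protocols, crosslinking used EGS, followed by EGS together with formaldehyde, on frozen and ground worms. The labels do not say whether replicates came from separate cultures.

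From these lists, widths, overlaps of at least 1 bp, midpoints, gaps and percentile ranks were computed with Python 3.11.15, numpy 2.4.6, pandas 2.3.3, scipy 1.17.1 and matplotlib 3.10.9. Chromosome length was the largest peak end in any list. Where several replicate peaks met a domain, edges, width and score are those of the one with most shared bases. Intervals are 95% Clopper-Pearson. No p-value was computed over peaks. The overlap code was checked on simulated intervals. Regions named were the 12 widest domains, the 8 with the highest scores, the widest of each chromosome, the 5 widest met by a single replicate and those met by neither. Others named (threshold neighbours, runs, divided domains, III:3867353-3869667, X:1389161-1390278, pieces of one replicate 1 peak) were chosen after their values were seen. The domains, the lists and the comparisons were chosen with earlier results of these data known. No sequence is shown because no genome of this build was used here. Alternatives were other width thresholds, overlap rules, score filters, arm lengths, gaps and covered bases.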

Additional observations from a re-analysis of the deposited data

Results flagged for a closer look

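The series-level list also held 2 peaks of 1000 bp or more on mitochondrial DNA, outside the nuclear domains described above. They spanned positions 1 to 10549 (score 45.94) and 10748 to 13304 (score 30.58), and neither replicate list held a mitochondrial peak. They stand out as a signal in sequence that the comparisons leave out.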

How the results depend on the processing

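Of 93 alternative values for 13 results, 78 stayed within the spread of the 2 replicates or, where a result has no replicates, within its 95% interval. Only 2 replicates define that spread, so leaving out 1 could not exceed it. The overlapped share was 86.9% to 94.9% for domains and 34.3% to 56.3% for narrower peaks with 1 replicate left out, and the share enclosed in 1 peak 19.8% to 79.95%. That last spread is so wide that its 8 alternatives staying within it says little about how stable the enclosed share is. For each change that follows, the cause was not tested. Width thresholds of 750, 1500 and 2000 bp gave median score percentiles of 84.5, 91.4 and 92.3 and shares within 10 kb of another domain of 44.9%, 32.1% and 22.1%. A gap of 20 kb gave 43.3%. With the upper 50% of each replicate list, 83.6% of domains and 24.2% of narrower peaks were overlapped. With replicate peaks of 1000 bp or more only, an alternative chosen after seeing the data, the shares were 77.9% and 18.0%. Narrower peaks of the upper 50% of the series-level list were overlapped in 63.1%, and those weighted to the domains' broad score classes in 71.9%. With arms as outer segments of 50% of the length, 59.6% of autosomal domains lay on them, 1.19 times that share of the length. The share expected from length is smaller there too, so this change is not by itself a weaker excess. Without III 1.0 to 2.5 Mb the III ratio was 1.19. The ratios of IV (0.98 to 1.17) and V (0.92 to 1.06) crossed 1, and those of I, II, III and X did not. No paired analysis was possible because replicate numbers are shared only with the input, for which no list of peaks was analysed, and no test was made. Depth, which limits how many peaks and how wide a peak a list can hold, is unknown.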
